A study of Mus musculus with 4 samples.

Results

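Amino acid transporters are the carriers that bring amino acids across the plasma membrane and out of lysosomes. They were taken as all symbols of the solute carrier families SLC1, SLC3, SLC6, SLC7, SLC36, SLC38 and SLC43, which gave 64 of the 24358 gene symbols and 100 of the 34535 transcripts measured. Among these 64, 3 symbols end in "os" (Slc7a6os, Slc36a1os and Slc6a19os) and name neighbouring genes on the opposite strand, so 61 are carriers or carrier subunits. Some of the 61 carry other solutes, such as creatine, monoamines or nucleobases, and are named as such. RNA was compared between macrophages carrying CD301b and immune cells negative for F4/80. Both were sorted by flow cytometry out of wound bed dermis, taken from mice at day 5. All mice were male C57/Bl6 animals of 7 weeks with no further genotype or treatment given, and each population had 2 libraries. CD301b is a C-type lectin on a subset of wound macrophages, and F4/80 is a surface antigen commonly used to sort mouse macrophages. No macrophages lacking CD301b were among the samples, so traits of this subset and of wound macrophages in general cannot be told apart.

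Expression was given as 1 FPKM value (fragments corrected for transcript length and library size) per transcript and population. How far the 2 libraries of a population varied is therefore unknown, and no error stands beside any FPKM. Whether the libraries came from separate animals is not stated, so the p-values may cover technical spread only. The depth of the libraries is also unknown. A gene was called higher or lower in CD301b macrophages when 1 or more of its transcripts fell at or under 0.05 after adjustment that way, no transcript did so the opposite way, and its summed FPKM had the same sign. P-values are those of Cuffdiff, read from the authors' deposited table and adjusted by Benjamini-Hochberg over all 16921 tested transcripts. A gene's printed p comes from whichever transcript had the lowest, so the sum itself was not tested. Its smallest possible value, 0.000999, applied to Slc7a7, Slc7a8, Slc43a2, Slc38a6, Slc38a7 and Slc1a5. In these bulk samples fewer cells of a type and less RNA per cell cannot be told apart.

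The labels were checked against markers. All 10 macrophage markers were higher in CD301b macrophages (summed level 7720 FPKM, against 2658 FPKM in F4/80-negative cells), Adgre1, which encodes F4/80, among them at 557 against 151 FPKM. Mgl2, which encodes CD301b, went the other way, at 49.2 FPKM in CD301b macrophages and 103 FPKM in F4/80-negative cells. Markers of dendritic cells were lower in 6 of 7 cases (summed 56.7 against 230 FPKM), of mast cells in 5 of 5 (19.3 against 55.1 FPKM) and of neutrophils in 3 of the 4 with values (2125 against 3847 FPKM). With CD301b macrophages first, the lower neutrophil markers S100a8 and S100a9 had 938 against 1725 FPKM and 1092 against 2025 FPKM. Csf3r, called lower through 1 of its 3 transcripts, was nearly level by summed FPKM (68.1 against 71.3 FPKM). Cxcr2 (27.3 against 25.7 FPKM) was not past the threshold. Fibroblast markers summed to 2799 FPKM in CD301b macrophages and 3841 FPKM in F4/80-negative cells, with 1 of 5 lower (Lum), and keratinocyte markers to 138 and 171 FPKM, with none of 4 past the threshold. Endothelial markers summed to 44.9 and 47.6 FPKM with none of 3 past it. T and natural killer cell markers (2.34 and 2.91 FPKM over 4 genes, of which 1 was tested) and B cell markers (0.481 and 0.597 FPKM over 3 genes, none tested) were near 0. No marker was listed at 0 in both populations. F4/80-negative cells thus also held RNA of macrophage markers, and both populations held RNA of fibroblast markers. The part of these other cells, or of macrophage RNA in F4/80-negative cells, in the transporter differences below was not tested.

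Amino acid transport works in layers. Several SLC7 proteins are light chains that reach the plasma membrane only when joined to a heavy chain, chiefly the product of Slc3a2 (4F2hc or CD98). Most of these light chains are exchangers, which swap an amino acid inside for another outside. SLC1, SLC6 and SLC38 carriers are mostly driven by sodium and load cells with substrates such as glutamine, taurine or small neutral amino acids, while several SLC36 and SLC38 members sit on lysosomes. In macrophages, the supply of arginine, glutamine and cystine feeds nitric oxide and polyamine synthesis, energy metabolism and glutathione.

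Slc7a7 encodes y+LAT1, a light chain that exports cationic amino acids such as arginine and lysine in exchange for neutral amino acids and sodium. Loss of the human gene causes lysinuric protein intolerance. The mouse gene (NCBI gene 20540) lies on chromosome 14 from 54369442 to 54420068 on the minus strand (GRCm38.p6). The results give 3 isoforms of it, and all 3 models in the GENCODE M21 annotation (GRCm38) share the same 9 coding exons, 1530 coding bases in all. They differ in noncoding leader exons and in where they start. NM_001253680 starts at 54409460 with a leader exon of 211 bases (54409250 to 54409460). NM_001253679 starts at 54417679, which is 8219 bases upstream, and has 2 leader exons with 205 bases. NM_011405 starts at 54417699 and has 3 leader exons with 359 bases. Only the leader exons can tell the isoforms apart, since reads within the coding exons belong to all 3.

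**Figure D1:**
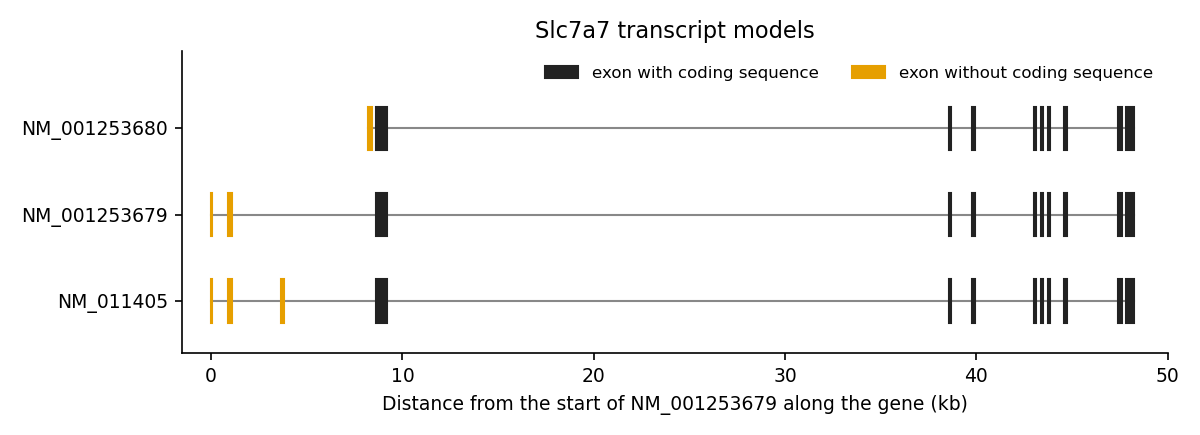
Exons of the 3 Slc7a7 isoforms drawn to scale by their distance in kb from the start of NM_001253679, with coding exons in black and noncoding leader exons in orange. NM_001253680 begins 8.22 kb downstream, just before the first coding exon that all 3 share.

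The sequences around the downstream and the upstream start are shown because the downstream isoform was past the threshold between the populations. Neither upstream isoform was past it. Both are RefSeq windows of GRCm38.p6 from 250 bases before to 50 bases after a start site, on the minus strand of chromosome 14, written 5′ to 3′. Capitals mark a match to the amino acid response element, searched as TGATGNAA on both strands.

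Slc7a7 downstream start, chr14:54409423-54409722: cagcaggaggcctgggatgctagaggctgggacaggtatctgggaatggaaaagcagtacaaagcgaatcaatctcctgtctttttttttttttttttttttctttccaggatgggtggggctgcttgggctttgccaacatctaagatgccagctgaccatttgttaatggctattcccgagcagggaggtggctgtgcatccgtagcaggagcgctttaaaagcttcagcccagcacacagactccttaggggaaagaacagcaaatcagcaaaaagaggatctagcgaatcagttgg
Slc7a7 upstream start, chr14:54417653-54417952: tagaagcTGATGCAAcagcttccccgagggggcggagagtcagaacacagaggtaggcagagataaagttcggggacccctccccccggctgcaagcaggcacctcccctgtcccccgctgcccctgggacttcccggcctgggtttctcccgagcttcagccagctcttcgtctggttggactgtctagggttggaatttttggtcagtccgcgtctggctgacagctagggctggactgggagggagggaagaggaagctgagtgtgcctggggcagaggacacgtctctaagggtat

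The RefSeq start in the downstream window is 54409472 and lies 12 bases from the GENCODE start of NM_001253680. That in the upstream window is 54417702, at 3 bases from the start of NM_011405. The downstream window had no match to TGATGNAA, and the upstream window had a single match, TGATGCAA, at position -243 from its start site. The upstream window also takes in the start of NM_001253679. RefSeq has 5 windows for the gene, and the window set on that start, 54417679, had no match. Neither did the window of the start at 54410203. The window of the start at 54417944 had 2 matches, TGATGAAA at position -141 and TGATGCAA at position -1, and the TGATGCAA is the same site as the match in the printed window. Neither window matched the antioxidant response element, searched as TGACNNNGC on both strands. TGATGNAA was found in 3.97% of all 32851 RefSeq promoter windows and TGACNNNGC in 12.4%. Of the 64 symbols, 46 had windows (67 in all). TGATGNAA was found in 4 of these 67 windows, from 3 symbols (Slc7a7, Slc7a11 and Slc1a4), and TGACNNNGC in 11 windows, from 9 symbols. GC content was 48.3% in the downstream and 61.3% in the upstream window, against a median of 52.7% over all windows. A match or its absence describes these letters only.

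NM_001253680, the isoform of the downstream start, had 35.5 FPKM in CD301b macrophages and 6.27 FPKM in F4/80-negative cells. It was 5.65-fold higher in the macrophages, and its adjusted p was 0.000999 (Cuffdiff, authors' deposited table). Among the 9072 tested transcripts at 5 FPKM or more in either population, 46 had a ratio at least as high, itself included. NM_001253679 ran the other way, at 10.8 FPKM in CD301b macrophages and 14.9 FPKM in F4/80-negative cells, but was not past the threshold (unadjusted p = 0.04625, adjusted p = 0.175, from the authors' deposited table). NM_011405 was scarce in both populations, at 0.164 FPKM in CD301b macrophages and 0.683 FPKM in F4/80-negative cells, and was not past the threshold either. The call of Slc7a7 thus rests on the downstream isoform.

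The make-up of Slc7a7 RNA differed accordingly. The downstream isoform made up 76.4% of the gene's FPKM in CD301b macrophages and 28.7% in F4/80-negative cells, while the upstream isoforms together made up 23.6% in CD301b macrophages and 71.3% in F4/80-negative cells. The shift of 47.6 percentage points was not tested as such, because no values per library were available. As a background, 1952 genes had at least 2 tested transcripts and 5 FPKM or more in both populations, and 16 of them (0.820%) had a share change at least as large, Slc7a7 included. A transcript past the threshold was present in 4 of these 16, but the same count over all 1952 genes was not made. The other 5 transporter genes that could be set in this comparison shifted less, by between 0.216 percentage points in Slc3a2 and 9.97 percentage points in Slc43a2.

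**Figure D2:**
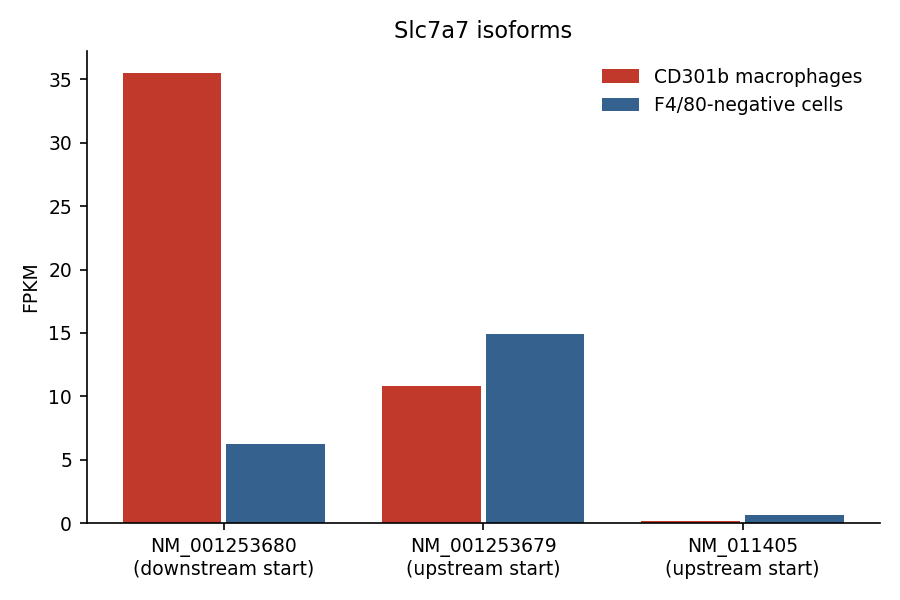
FPKM of each Slc7a7 isoform in CD301b macrophages (red, left bars) and F4/80-negative cells (blue, right bars), 1 value per population with no error available. NM_001253680 stands at 35.5 FPKM in CD301b macrophages and 6.27 FPKM in F4/80-negative cells, while both upstream isoforms are lower in the macrophages without passing the threshold.

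Across all 64 symbols, 32 had a tested transcript. CD301b macrophages had higher levels of 7 of these and lower levels of 6, and 19 did not pass the threshold. That is 21.9% higher and 18.8% lower, where 11.0% of all 13039 tested genes were higher and 6.20% were lower. At the level of transcripts, 8 of 45 tested were higher and 6 were lower, where 9.10% and 5.14% of all tested transcripts were. The higher genes were Slc7a7, Slc7a8, Slc43a2, Slc6a6, Slc38a6, Slc38a7 and Slc36a1. The lower genes were Slc1a5, Slc7a5, Slc7a1, Slc6a12, Slc6a4 and the opposite-strand gene Slc7a6os. None of the 64 had opposite calls among its transcripts. The median difference on the log2(FPKM + 1) scale was -0.12 over the 32 tested symbols and 0.05 over all tested genes. Over genes at 1 FPKM or more in both populations, the median FPKM was 10.3 in CD301b macrophages and 9.56 in F4/80-negative cells. The log2 ratio of these medians, without a pseudocount, was 0.11. The 22 symbols that were called or reached 5 FPKM kept their direction relative to that shift.

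**Figure D3:**
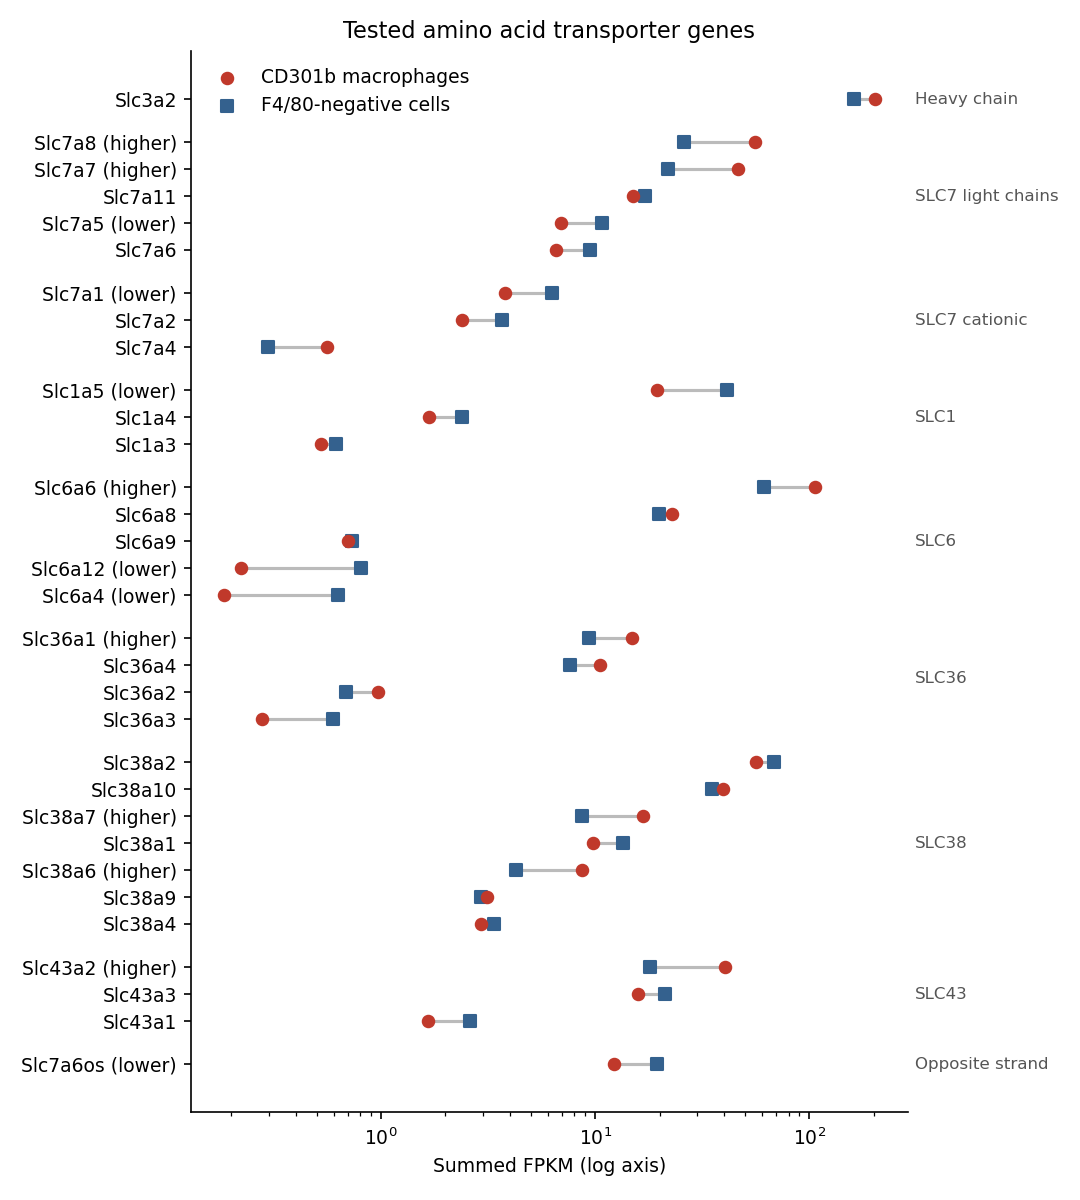
Summed FPKM of the 32 tested symbols on a log axis, with CD301b macrophages as red circles and F4/80-negative cells as blue squares, ordered by family and with the 13 calls written beside the names. Slc3a2 has the highest level in both populations, and SLC6 and the SLC7 light chains each hold genes with higher and with lower calls.

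The remaining 32 symbols had no tested transcript, and the highest of them reached 0.286 FPKM. Slc7a9, Slc7a12, Slc6a3, Slc6a5 and Slc38a8 were listed at 0 in both populations. In all, 39 of the 64 symbols were under 1 FPKM in both populations, 17 of them in SLC6, a family known mostly from neurons, kidney and gut. At the other end, 20 symbols reached 5 FPKM or more in either population.

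Slc3a2, the shared heavy chain, was the most abundant of all 64 symbols in both populations, at 203 FPKM in CD301b macrophages and 161 FPKM in F4/80-negative cells. Its difference was not past the threshold (adjusted p = 0.281, from the authors' deposited table). Its main transcript NM_008577 made up 97.9% of it in CD301b macrophages and 98.1% in F4/80-negative cells. Slc3a1, the heavy chain of kidney and gut, was not tested and had 0.0268 FPKM in CD301b macrophages and 0.0462 FPKM in F4/80-negative cells.

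The SLC7 light chains split in their calls. Of 10 SLC7 light chains 5 were tested, 2 were higher (40%, beside 11.0% of all tested genes) and 1 was lower (20%, beside 6.20%). Slc7a8 encodes LAT2, an exchanger of neutral amino acids. It had 55.7 FPKM in CD301b macrophages, against 26.0 FPKM in F4/80-negative cells, and was 2.14-fold higher (chromosome 14, 54722215 to 54781886, GRCm38.p6). Slc7a7 had a summed 46.4 FPKM in CD301b macrophages and 21.8 FPKM in F4/80-negative cells and was 2.13-fold higher. Slc7a5 encodes LAT1, the exchanger that brings leucine and other large neutral amino acids into growing and activated cells. It had 6.94 FPKM in CD301b macrophages and 10.7 FPKM in F4/80-negative cells and was 1.55-fold lower (adjusted p = 0.0394, from the authors' deposited table). The system L carriers LAT2 and LAT1 therefore had opposite calls.

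Slc7a6, which encodes y+LAT2, the nearest relative of y+LAT1, had 6.56 FPKM in CD301b macrophages and 9.45 FPKM in F4/80-negative cells and was not past the threshold (unadjusted p = 0.0143, adjusted p = 0.0804, from the authors' deposited table). Slc7a11, which encodes xCT, the cystine importer that supplies glutathione synthesis, had 14.97 FPKM in CD301b macrophages and 17.04 FPKM in F4/80-negative cells and was not past it (adjusted p = 0.568, from the authors' deposited table). Slc7a10 was at 0 FPKM in CD301b macrophages and 0.0129 FPKM in F4/80-negative cells. The neighbouring opposite-strand gene Slc7a6os, which is no transporter, had 12.3 FPKM in CD301b macrophages and 19.5 FPKM in F4/80-negative cells and was lower (adjusted p = 0.0301, from the authors' deposited table).

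The light chains counted as partners of Slc3a2 were Slc7a5, Slc7a6, Slc7a7, Slc7a8, Slc7a10 and Slc7a11. Summed over these 6 light chains, the level was 130.6 FPKM in CD301b macrophages and 85.1 FPKM in F4/80-negative cells. Slc7a7 and Slc7a8 together made up 78.2% of that sum in CD301b macrophages and 56.2% in F4/80-negative cells. The share of Slc7a5 was 5.31% in CD301b macrophages and 12.6% in F4/80-negative cells, and that of Slc7a11 was 11.5% and 20.04%. These shares describe RNA, and the spread between libraries was not available for them.

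**Figure D4:**
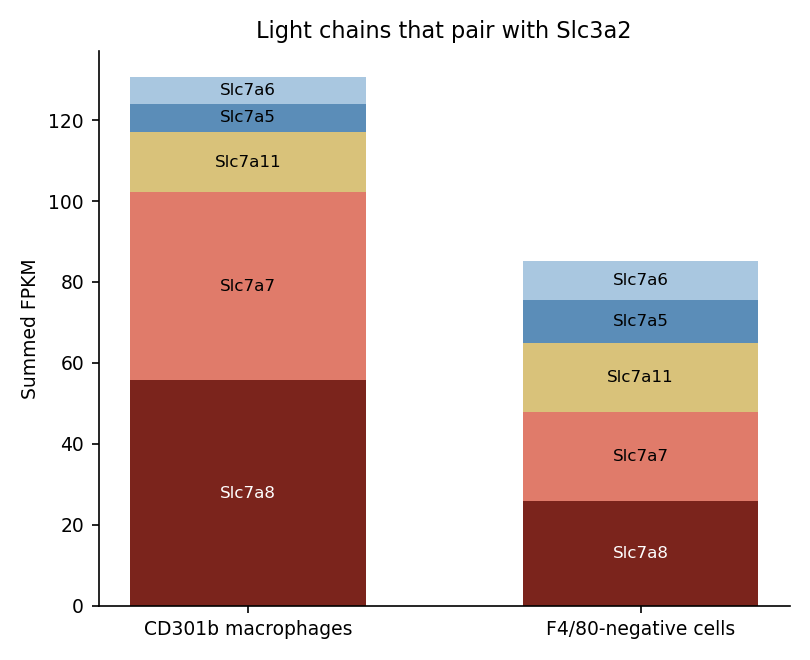
Summed FPKM of the light chains that pair with Slc3a2, stacked for CD301b macrophages (left) and F4/80-negative cells (right); Slc7a10, at or near 0, is left out. Slc7a8 and Slc7a7 are the 2 largest parts in both columns, at 102 FPKM together in CD301b macrophages and 47.8 FPKM in F4/80-negative cells.

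The group of SLC7 cationic carriers includes importers of arginine and lysine. Slc7a1, which encodes the widely expressed CAT1, had 3.81 FPKM in CD301b macrophages and 6.27 FPKM in F4/80-negative cells and was 1.64-fold lower by summed FPKM (adjusted p = 0.0365, from the authors' deposited table). Slc7a2 encodes CAT2, known as the inducible arginine importer of activated macrophages. It had 2.39 FPKM in CD301b macrophages and 3.66 FPKM in F4/80-negative cells and was not past the threshold (adjusted p = 0.168, from the authors' deposited table). Slc7a4 was at 0.559 FPKM in CD301b macrophages and 0.296 FPKM in F4/80-negative cells and was not past it. Of the 5 symbols in this group, 3 were tested, 1 was lower (33.3%, beside 6.20% of all tested genes) and none was higher (beside 11.0%).

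Among SLC1 genes, Slc1a5 was lower. It encodes ASCT2, a sodium-dependent exchanger of glutamine, serine and other neutral amino acids (NCBI gene 20514, chromosome 7, 16781334 to 16798274, GRCm38.p6). Its level was 19.4 FPKM in CD301b macrophages, against 41.3 FPKM in F4/80-negative cells, and it was 2.12-fold lower with adjusted p = 0.000999 in the authors' deposited table. Slc1a4, which encodes the related ASCT1, had 1.68 FPKM in CD301b macrophages and 2.40 FPKM in F4/80-negative cells and was not past the threshold (adjusted p = 0.202, from the authors' deposited table). Slc1a3, a glutamate importer of astrocytes, was at 0.526 FPKM in CD301b macrophages and 0.617 FPKM in F4/80-negative cells and was not past it. The other 4 SLC1 symbols were not tested.

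Of 19 SLC6 symbols 5 were tested, 1 was higher (20%, beside 11.0% of all tested genes) and 2 were lower (40%, beside 6.20%). Slc6a6, which encodes the taurine transporter TauT, was the second most abundant of the 64 symbols in CD301b macrophages. It had 106 FPKM there, against 61.2 FPKM in F4/80-negative cells, and was 1.73-fold higher (adjusted p = 0.00182, from the authors' deposited table). Slc6a8, the creatine transporter, had 22.8 FPKM in CD301b macrophages and 19.8 FPKM in F4/80-negative cells and was not past the threshold (adjusted p = 0.444, from the authors' deposited table). Slc6a9, which encodes the glycine transporter GlyT1, had 0.701 FPKM in CD301b macrophages and 0.729 FPKM in F4/80-negative cells and was not past it.

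The 2 lower SLC6 genes were under 1 FPKM in both populations. Slc6a12, which carries betaine and GABA, had 0.222 FPKM in CD301b macrophages and 0.805 FPKM in F4/80-negative cells (adjusted p = 0.0324, from the authors' deposited table). Slc6a4 encodes the serotonin transporter, known in mast cells and platelets as well as neurons. It had 0.185 FPKM in CD301b macrophages and 0.631 FPKM in F4/80-negative cells (adjusted p = 0.0275, from the authors' deposited table). The mast cell markers Kit (1.06 against 5.33 FPKM), Cpa3 (3.39 against 9.51 FPKM), Mcpt4 (5.93 against 16.9 FPKM), Cma1 (6.01 against 15.5 FPKM) and Tpsb2 (2.94 against 7.85 FPKM) were lower in the same direction, with CD301b macrophages given first, and their part in the Slc6a4 difference was not tested.

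The higher genes included carriers known from lysosomes. Slc36a1 encodes PAT1, which moves small neutral amino acids with protons, in part out of lysosomes. It had 14.8 FPKM in CD301b macrophages and 9.34 FPKM in F4/80-negative cells and was 1.59-fold higher (adjusted p = 0.0204, from the authors' deposited table). Slc38a7 encodes SNAT7, which exports glutamine and asparagine from lysosomes. Its level was 16.8 FPKM in CD301b macrophages, against 8.72 FPKM in F4/80-negative cells, and it was 1.93-fold higher with adjusted p = 0.000999 in the authors' deposited table.

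Slc38a9, the lysosomal arginine sensor of the growth kinase complex mTORC1, stood at 3.13 FPKM in CD301b macrophages and 2.94 FPKM in F4/80-negative cells and was not past the threshold (adjusted p = 0.814, from the authors' deposited table). Its difference of 0.06 on the log2(FPKM + 1) scale was close to the median of 0.05 over all tested genes. Slc36a4, which encodes PAT4, had 10.6 FPKM in CD301b macrophages and 7.63 FPKM in F4/80-negative cells and was not past it (unadjusted p = 0.04255, adjusted p = 0.167, from the authors' deposited table). Slc36a2 and Slc36a3 stayed under 1 FPKM and were not past it.

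Of the other SLC38 genes, Slc38a6 had 8.69 FPKM in CD301b macrophages and 4.25 FPKM in F4/80-negative cells and was 2.05-fold higher, with adjusted p = 0.000999 in the authors' deposited table. Slc38a2 encodes SNAT2, the sodium-coupled importer of small neutral amino acids that cells raise when amino acids run short. It had 56.2 FPKM in CD301b macrophages and 68.5 FPKM in F4/80-negative cells and was not past the threshold (adjusted p = 0.380, from the authors' deposited table). Slc38a1, which encodes the glutamine importer SNAT1, had 9.79 FPKM in CD301b macrophages and 13.4 FPKM in F4/80-negative cells and was not past it (unadjusted p = 0.0444 and adjusted p = 0.172 for its main transcript, from the authors' deposited table).

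Slc38a10 had 39.5 FPKM in CD301b macrophages and 35.2 FPKM in F4/80-negative cells, spread over 6 transcripts of which none was past the threshold. Slc38a4 was at 2.93 FPKM in CD301b macrophages and 3.39 FPKM in F4/80-negative cells, also not past it. Of 11 SLC38 symbols 7 were tested, 2 were higher (28.6%, beside 11.0% of all tested genes) and none was lower (beside 6.20%).

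SLC43 carriers pass neutral amino acids by facilitated diffusion, without sodium or exchange. Slc43a2 encodes LAT4, which carries branched-chain amino acids, methionine and phenylalanine (NCBI gene 215113, chromosome 11, 75529915 to 75577575, GRCm38.p6). It had 40.5 FPKM in CD301b macrophages and 18.0 FPKM in F4/80-negative cells and, at 2.25-fold higher, had the largest ratio among the 7 higher transporters. Its transcripts NM_173388 (29.7 against 12.1 FPKM) and NM_001199283 (9.47 against 3.51 FPKM) were both higher in CD301b macrophages, given first, each with adjusted p = 0.000999 in the authors' deposited table. Their GENCODE models start 414 bases apart. These transcripts had similar ratios, 2.46-fold and 2.69-fold, and the difference between them was not tested. NM_001199284 ran the other way, at 1.35 FPKM in CD301b macrophages and 2.39 FPKM in F4/80-negative cells, and was not past the threshold. It made up 3.33% of the gene's FPKM in CD301b macrophages and 13.3% in F4/80-negative cells. Its GENCODE model is the same as that of NM_173388.

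Slc43a1, which encodes the related LAT3, had 1.66 FPKM in CD301b macrophages and 2.60 FPKM in F4/80-negative cells. None of its 3 transcripts was past the threshold, although NM_001081349 stood at 0.969 FPKM in CD301b macrophages and 9.41e-05 FPKM in F4/80-negative cells. Slc43a3, a carrier of purine nucleobases and not of amino acids, had 15.8 FPKM in CD301b macrophages and 21.2 FPKM in F4/80-negative cells and was not past the threshold (unadjusted p = 0.0441, adjusted p = 0.171, from the authors' deposited table).

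**Figure D5:**
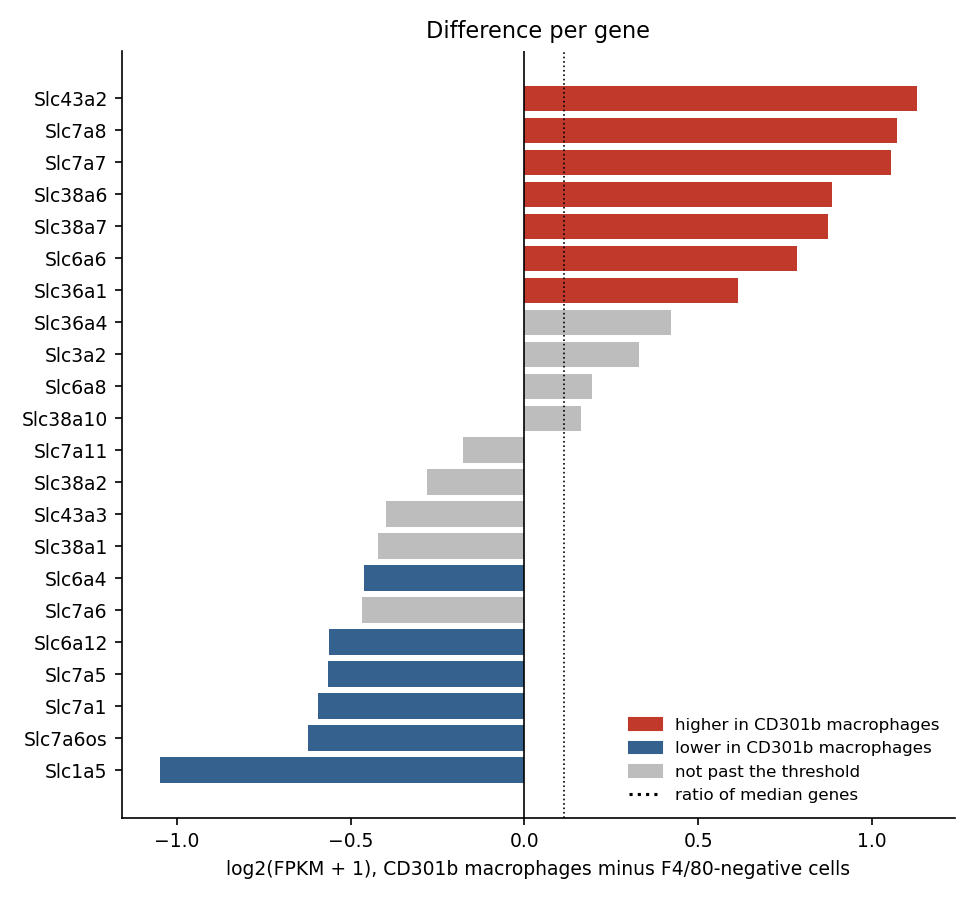
Difference in log2(FPKM + 1), CD301b macrophages minus F4/80-negative cells, for the 22 symbols that were called or reached 5 FPKM in either population, coloured by call. The dotted line marks 0.11, the log2 ratio of the median FPKM of the populations over genes at 1 FPKM or more in both. Slc43a2 is at 1.13 and Slc1a5 at -1.05.

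Of 20 amino acid and peptide transport genes outside the chosen families 13 were tested, 3 were higher (23.1%) and 1 was lower (7.69%), beside 11.0% and 6.20% of all tested genes. Pqlc2, which exports cationic amino acids from lysosomes, had 13.1 FPKM in CD301b macrophages and 6.57 FPKM in F4/80-negative cells. Slc17a5, the lysosomal exporter of sialic acid, had 9.52 FPKM in CD301b macrophages and 5.81 FPKM in F4/80-negative cells, and Slc25a15, the mitochondrial ornithine carrier, had 3.39 and 1.85 FPKM. Slc15a2, a plasma membrane peptide importer, was lower at 1.18 FPKM in CD301b macrophages and 2.48 FPKM in F4/80-negative cells. Ctns, the lysosomal cystine exporter (19.6 and 16.6 FPKM), was not past the threshold.

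Genes of the response to amino acid shortage gave calls in 1 direction. Of 19, all tested, 5 were lower in CD301b macrophages (26.3%, beside 6.20% of all tested genes) and none was higher (beside 11.0%), with a median difference of -0.27 on the log2(FPKM + 1) scale, where the median of all tested genes was 0.05. The lower genes were Atf4, the transcription factor of this response (213 FPKM in CD301b macrophages and 326 FPKM in F4/80-negative cells), Ddit3, which encodes the stress factor CHOP (29.1 and 61.0 FPKM), Mthfd2, a mitochondrial folate enzyme (9.59 and 18.6 FPKM), Nupr1 (57.3 and 90.8 FPKM) and Eif2ak4, which encodes the sensor kinase GCN2 (2.65 and 5.39 FPKM). Asns, asparagine synthetase, was at 5.70 FPKM in CD301b macrophages and 6.88 FPKM in F4/80-negative cells and was not past the threshold. Atf3 ran the other way, at 411 FPKM in CD301b macrophages and 290 FPKM in F4/80-negative cells. It was not past the threshold (unadjusted p = 0.0143, adjusted p = 0.0804, Cuffdiff, from the authors' deposited table). Atf5, Cebpb, Cebpg and Shmt2 were also higher without passing it, and Psat1 was nearly equal.

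In these lists and the next ones, the adjusted p of the called genes lay between 0.000999 and 0.0429 in the authors' deposited table. Genes of amino acid metabolism and of glutathione gave 4 higher and 5 lower calls over 4 lists, which held 29 tested genes. Of all tested genes, 11.0% were higher and 6.20% were lower. Of 9 tested genes of cystine use and glutathione synthesis, Gclm was higher (32.2 FPKM in CD301b macrophages and 16.2 FPKM in F4/80-negative cells) and Gsr was lower (31.9 and 59.5 FPKM). Of 7 enzymes of arginine, Arg1, which splits arginine into ornithine and urea, was higher (429 FPKM in CD301b macrophages and 260.3 FPKM in F4/80-negative cells), and Ass1, which helps remake arginine, was lower (4.83 and 15.6 FPKM). Of 6 enzymes of glutamine and glutamate, Glul, glutamine synthetase, was higher (249 FPKM in CD301b macrophages and 88.1 FPKM in F4/80-negative cells), and the transaminase Got1 was lower (82.6 and 138.6 FPKM). Of 7 tested enzymes of branched-chain and aromatic amino acids, Bckdha was higher (13.6 FPKM in CD301b macrophages and 8.37 FPKM in F4/80-negative cells), while Il4i1, a secreted amino acid oxidase (1.89 and 11.6 FPKM), and Kynu, of tryptophan breakdown (0.963 and 2.36 FPKM), were lower.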

How the data were processed

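Sorted CD301b macrophages and F4/80-negative cells (2 mRNA libraries each) were compared through 1 table of the whole series. Alignment with TopHat2 2.0.2 and testing with Cuffdiff 2.0.2 on mm9 are named per the submitters' processing notes. The loci in the file nevertheless overlap the RefSeq genes of GRCm38.p6 in 99.2% of the transcripts found there. Per the file headers, the authors deposited 1 FPKM per transcript and population, an unadjusted p-value and a test status. The sources used here do not say how libraries were combined or whether counting used strand. Adjusting by Benjamini-Hochberg at 0.05 over tested transcripts gave the deposited call in all 34535 transcripts (2408 past the threshold). The deposited p-value has a lower limit of 5e-05. FPKM times transcript length showed no steps of whole reads (13011 distinct values in 13044 genes), so depth could not be recovered.

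FPKM was summed per symbol, after 56 transcripts whose symbol a spreadsheet had turned into a date were matched by accession. Log2 differences use a pseudocount of 1 FPKM and understate changes of low genes. No new test was run. The calling code was run on simulated data in which the changed genes were given a small p by hand. That checks how the code applies the rule, not whether the calls are right. Genes named were all called transporters, others at 5 FPKM or more, all Slc7a7 isoforms, tested low members, and called genes of the other lists. Slc3a1, Slc7a10, Asns, Atf3, Atf5, Cebpb, Cebpg, Shmt2, Psat1 and Ctns were added outside this rule with their values known. The printed upstream promoter was chosen with its motif match known. The members and lists were chosen with earlier results of these data known. Python 3.11.15, pandas 2.3.3 and numpy 2.4.6 were used.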

Additional observations from a re-analysis of the deposited data

How the results depend on the processing

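The settings tried for the counts were calls by the most abundant transcript, 1 p per gene, and a minimum of 1 or 5 FPKM. Leaving out the symbols ending in "os" was added after seeing the data. The count of higher symbols was 7 under each setting. The count of lower symbols fell from 6 to 4 with a minimum of 1 or of 5 FPKM. It was 5 without the symbols ending in "os" and stayed at 6 under the other settings. The 22 symbols that were called or reached 5 FPKM kept their direction in 110 recalculations with pseudocounts of 0.1 and 0.5, median scaling, tested transcripts alone or coding transcripts alone. With a minimum of 1 or of 5 FPKM, 0 SLC6 genes were lower, since both lower ones are under 1 FPKM. With a minimum of 5 FPKM, 0 other transport genes were lower, and 1 enzyme of branched-chain and aromatic amino acids was lower; when the most abundant transcript decided the call, the count was also 1. The median log2 difference over all 64 symbols was -0.02 and became -0.16 among those at 1 FPKM or more, because symbols near 0 no longer entered. Summing the 2 upstream Slc7a7 isoforms, chosen after seeing the data, gave 11.0 FPKM in CD301b macrophages and 15.6 FPKM in F4/80-negative cells, the same direction. No paired analysis was possible because the table has 1 value per population, and for the same reason no replicate could be left out. Isoform values rest on the authors' estimates, whose error is not given.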
